A study of Mus musculus with 5 samples.

Results

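The globins and the other erythroid genes Alas2, Slc4a1 and Ahsp report the red cells that remain in a dissected colon. The members are all probe sets annotated to exactly 1 of 9 listed symbols (Hba-a1, Hba-x, Hbb-b1, Hbb-b2, Hbb-bh1, Hbb-y, Alas2, Slc4a1 and Ahsp), without regard to their values. The rule found 14 of the 22626 tested probe sets, which measure 7 of the 9 genes. Hba-x, Hba-a1 and Alas2 have 1 probe set each, Hbb-b2 has 2, and Hbb-bh1, Hbb-y and Slc4a1 have 3 each. No probe set names Hbb-b1 or Ahsp alone, so neither gene is reported.

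The arrays hold total RNA of whole fetal colon at stage E18.5 from 5 mouse embryos, 1 array per embryo. The null group has 3 embryos (null_59, null_60 and null_426) of genotype HNF4LoxP/LoxP FoxA3Cre. The control group has 2 embryos (CONTROL_406 and CONTROL_421) of genotype HNF4LoxP/+ FoxA3Cre, so the Cre transgene and at least 1 floxed allele are common to both groups. Foxa3, after which the Cre line is named, is active in endoderm, whereas blood cells descend from mesoderm.

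In mammals the first red cells come from the yolk sac and carry embryonic haemoglobin. The mouse makes its chains from Hba-x (zeta, alpha-like) and from Hbb-y and Hbb-bh1 (beta-like). Red cells made later in the fetal liver carry adult alpha and beta chains and come to dominate the circulation before birth. Alas2 makes the first intermediate of haem in red cell precursors, and Slc4a1 encodes band 3, the anion exchanger that anchors the membrane skeleton. In whole tissue, fewer red cells and less RNA per cell cannot be told apart.

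Median deposited intensities ranged from 123.7 to 135.2 over the 5 arrays, and log2 values of array pairs correlated at 0.946 to 0.974 across probe sets, which are not independent replicates. As a sign of RNA quality, the signal of Gapdh at its 3′ end over that at its 5′ end was 1.47 in CONTROL_421 and 0.767 to 0.895 in the other arrays. Log2 differences below are null minus control on quantile-normalised log2(intensity + 16). They were tested with limma against an adjusted p of 0.05 over the whole table, while the levels given per array are deposited intensities, which do not compare 1 probe set with another. The labels name the floxed gene only as HNF4, and Hnf4a read 650, 746 and 723 in the null arrays and 945 and 991 in the control arrays by its brightest probe set, 1427001_s_at (log2 difference -0.35, limma adjusted p = 0.719). None of its 4 probe sets passed the threshold (1 of the 4 had an unadjusted p under 0.05), their signs split with 1427000_at at -0.55, 1421983_s_at at 0.14 and 1450447_at at 0.19, and the labels do not say which exons are floxed. Epithelial RNA was present in all arrays, with Cdx2, the hindgut identity factor, at 311 to 317 in null and 344 and 402 in control colons.

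The core promoters of the members show the elements that globin genes share and those in which they differ. RefSeq promoter sequences (GRCm38.p6) were found for 4 of the 9 members, and the 150 bases before the start of each gene are given 5′ to 3′ on the gene's strand. Capitals mark 4 kinds of match, and adjoining or overlapping matches form 1 run. The first is CACCC on either strand, the box that the erythroid factor Klf1 is known to bind. The second, also on either strand, is CCAAT, a box of many promoters. The third, on either strand, is GATAA (or the same with a final G), which holds the core read by Gata1. The last is a TATA-like element on the given strand, written as TATAA or, shifted by a base, as ATAAA. The sequences lie at chr11:32276450-32276599 (plus strand, Hba-x), chr7:103853208-103853357 (minus strand, Hbb-y), chr11:32283522-32283671 (plus strand, Hba-a1) and chrX:150547267-150547416 (plus strand, Alas2).
Hba-x: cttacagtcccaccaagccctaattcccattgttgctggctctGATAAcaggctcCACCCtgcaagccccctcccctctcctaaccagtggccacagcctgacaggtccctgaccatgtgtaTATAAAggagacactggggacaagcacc
Hbb-y: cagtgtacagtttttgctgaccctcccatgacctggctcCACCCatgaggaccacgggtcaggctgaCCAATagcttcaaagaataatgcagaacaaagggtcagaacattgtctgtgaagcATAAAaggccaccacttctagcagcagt
Hba-a1: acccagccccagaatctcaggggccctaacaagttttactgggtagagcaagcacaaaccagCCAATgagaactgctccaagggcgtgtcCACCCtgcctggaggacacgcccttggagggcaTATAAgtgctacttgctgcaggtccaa
Alas2: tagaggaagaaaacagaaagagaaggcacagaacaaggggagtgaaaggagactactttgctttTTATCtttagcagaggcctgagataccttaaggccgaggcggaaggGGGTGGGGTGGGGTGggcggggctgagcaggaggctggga
Each globin promoter holds 1 CACCC match, and Alas2 holds 3 on the opposite strand. The second motif was found in Hbb-y and Hba-a1, the third in Hba-x and Alas2, and the last in the globin promoters shown. Of 32851 promoters of the same length, 37.4% held the first motif, 24.5% the second, 23.3% the third and 19.2% the last. These matches describe the letters only, and no binding was measured.

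Adult globin signal was present in every colon and did not differ detectably between the genotypes. By probe set 1427866_x_at, Hbb-b2, an adult beta chain gene, read 2719 in null_59, 3149.8 in null_60 and 3113 in null_426, and 2993 in CONTROL_406 and 3244 in CONTROL_421. CONTROL_421 was the highest array and null_59 the lowest, and the null mean of 2994 ± 239 (SD, n = 3) stood against a control mean of 3119 ± 177 (SD, n = 2). The null over control ratio was 0.991-fold (95% interval 0.765 to 1.28, limma adjusted p = 0.990). The suffix _x_at marks probe sets that may also bind related transcripts, and Hbb-b2 has near-identical paralogs, so this value may hold signal of other adult beta chains.

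The other probe set of Hbb-b2, 1427865_at, was dimmer and varied more. It read 319, 437 and 361 in the null and 283 and 498 in the control arrays, so that the control arrays were the lowest and the highest of all 5. The log2 difference was 0.0023 ± 0.24 (SE, limma adjusted p = 0.999), and it was -0.40 without CONTROL_406 and 0.40 without CONTROL_421, whose Gapdh ratio was high. The part of RNA quality in this spread was not tested. The third adult probe set hardly varied. Hba-a1, an adult alpha chain gene, read 139, 132 and 134 in null and 130.2 and 134 in control arrays by 1453574_at (log2 difference -0.015 ± 0.16, SE, limma adjusted p = 0.988). Its highest array exceeded its lowest by 1.06-fold, the smallest ratio among the 14 probe sets. This probe set read below the array's median intensity on 2 of 5 arrays, and its mean lay at percentile 50.5 of all probe sets. The probe sets that list Hba-a1 with Hba-a2, given below, lay at percentiles 99.1 to 99.9. How far 1453574_at responds to Hba-a1 RNA was not tested, so its small variation may not be that of the gene.

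A further 4 probe sets are annotated to several globin symbols that include a member, and they name no single gene. Probe sets 1417714_x_at, 1428361_x_at and 1452757_s_at list Hba-a2 and Hba-a1, the paired adult alpha genes. Probe set 1417184_s_at lists Hbb-bt, Hbb-bs, Hbb-b2 and Hbb-b1, the beta genes of different mouse haplotypes. The brightest, 1428361_x_at, read 4564, 4809 and 4775 in null and 5378 and 4185 in control arrays. The beta probe set read 3966, 4069.6 and 4373 in null and 4690.4 and 3626 in control arrays. In all 4 probe sets CONTROL_406 had the highest deposited intensity and the groups overlapped. The null over control ratios lay from 0.935-fold to 1.01-fold, the lowest lower bound of their 95% intervals was 0.700 and the highest upper bound was 1.31 (limma adjusted p from 0.920 to 0.999). Saturation of these bright probe sets was not examined.

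**Figure D1:**
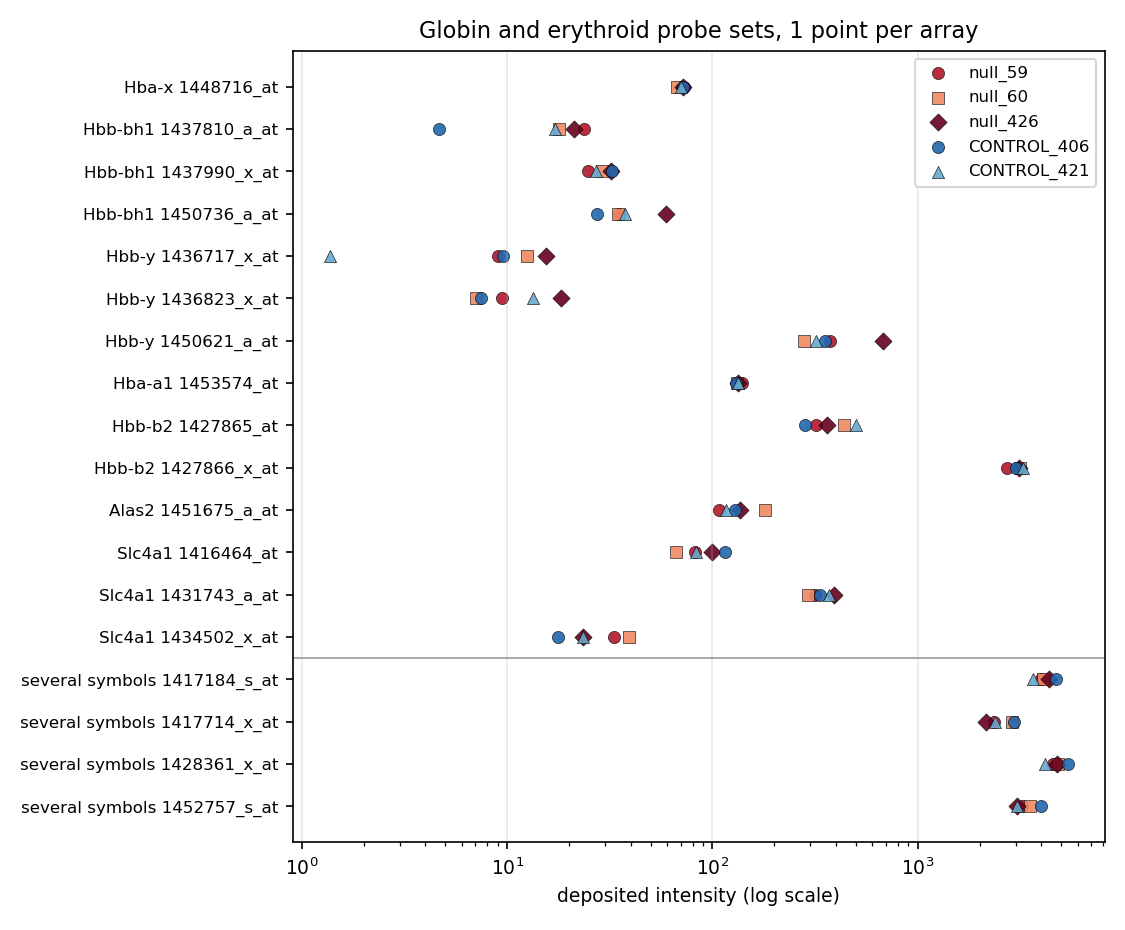
Deposited intensity (log axis) of the 14 member probe sets and, below the line, of the 4 probe sets annotated to several globin symbols, with 1 point for each of the 3 null (red shades) and 2 control (blue shades) arrays. The points of both genotypes intermingle in most rows, and Hbb-y 1450621_a_at stands apart in null_426 at 676.

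Embryonic globin probe sets were mostly dim, and 6 of 7 read below the array's median intensity on all 5 arrays. The exception was 1450621_a_at of Hbb-y, the embryonic epsilon-like beta chain gene. It read 375 in null_59, 279 in null_60 and 676 in null_426, and 353 in CONTROL_406 and 321 in CONTROL_421. The array null_426 was the highest by a wide margin, while both control arrays lay between null_60 and null_59. The log2 difference between the genotypes was 0.33 ± 0.33 (SE, 95% interval -0.42 to 1.08, limma adjusted p = 0.842), and it was -0.050 without null_426.

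On the normalised log2 scale this Hbb-y probe set stood 1.11 above the mean of the other arrays in null_426. Of 11313 probe sets brighter than the median one, 18 (0.159%), this one included, stood at least as far above in that array. The array is given because the probe set was highest there, so this share describes the value and is no test. A rise of 1 or more was seen in 27 of these probe sets in null_426 and in 6 (null_60) to 70 (CONTROL_421) in the other arrays. The other probe sets of Hbb-y were also highest in null_426, at 15.4 against 1.37 to 12.4 elsewhere for 1436717_x_at and at 18.3 against 7.07 to 13.3 for 1436823_x_at. Their log2 differences between the genotypes were 0.34 ± 0.18 (SE, limma adjusted p = 0.741) and -0.0092 ± 0.22 (SE, limma adjusted p = 0.995). Both are so dim that the added 16 dominates their log2 values.

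Hbb-bh1, which lies beside Hbb-y in the beta globin cluster and is also active in primitive red cells, gave no uniform pattern. Its brightest probe set, 1450736_a_at, read 35.2, 34.8 and 59.7 in null and 27.4 and 37.4 in control arrays, again highest in null_426, with a log2 difference of 0.18 ± 0.21 (SE, limma adjusted p = 0.864). Probe set 1437810_a_at read 23.6, 18.0 and 21.2 in null and 4.68 and 17.1 in control arrays, a difference of 0.43 ± 0.25 (SE, limma adjusted p = 0.767). This was the largest difference among the members, and it rested on the low value of CONTROL_406, since without that array it was -0.015. At so low an intensity it also followed the added constant, with 1.07 for a constant of 1 and 0.15 for 64. Probe set 1437990_x_at read 24.8, 29.0 and 31.9 in null and 32.4 and 27.1 in control arrays, a difference of -0.13 ± 0.16 (SE, limma adjusted p = 0.870). Of the 6 probe sets of Hbb-y and Hbb-bh1, 4 were highest in null_426, 1 in null_59 and 1 in CONTROL_406.

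Hba-x, the embryonic zeta chain gene, gave nearly level values over the arrays by its only probe set. It read 72.3, 67.4 and 72.2 in null and 72.2 and 70.0 in control arrays by 1448716_at, and its highest array exceeded its lowest by 1.07-fold. The log2 difference was -0.083 ± 0.16 (SE, limma adjusted p = 0.917). This probe set read below the array's median intensity on all 5 arrays, and its mean lay at percentile 26.9 of all probe sets. How far 1448716_at responds to Hba-x RNA was not tested, so its small variation may not be that of the gene. The array null_426, highest by all 3 probe sets of Hbb-y, was not the highest by this probe set of Hba-x.

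**Figure D2:**
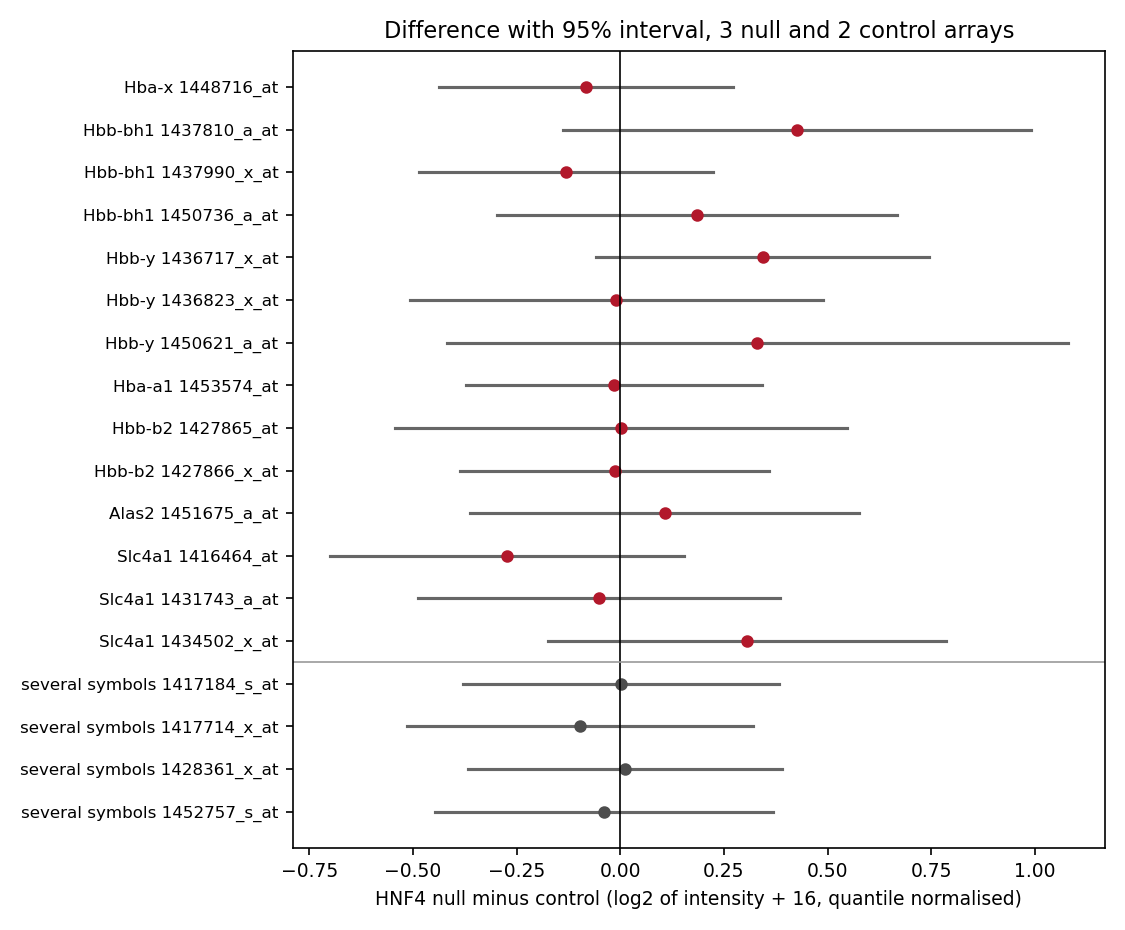
Log2 difference of HNF4 null minus control (dots) with its 95% interval (bars) for the 14 member probe sets (red) and the 4 probe sets of several globin symbols (grey), from 3 null and 2 control arrays. Every interval includes 0, and the widest is that of Hbb-y 1450621_a_at, from -0.42 to 1.08.

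No haem or membrane gene of red cells among the members passed the threshold. Alas2 read 107, 180.2 and 136 in null and 129 and 117 in control arrays by 1451675_a_at. The null arrays held both the lowest and the highest value, and the log2 difference was 0.11 ± 0.21 (SE, limma adjusted p = 0.921). Alas2 was highest in null_60, the array in which the bright Hbb-y probe set was lowest.

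Slc4a1 gave different signs by its 3 probe sets. The brightest, 1431743_a_at, read 317, 293 and 393 in null and 335 and 370.1 in control arrays, a log2 difference of -0.051 ± 0.19 (SE, limma adjusted p = 0.961). Probe set 1416464_at read 82.7, 66.4 and 99.7 in null and 115 and 83.1 in control arrays, a difference of -0.27 ± 0.19 (SE, limma adjusted p = 0.789), the lowest among the members with all arrays. It was -0.12 without CONTROL_406 and -0.42 without CONTROL_421. The dimmest, 1434502_x_at, read 33.1, 39.2 and 23.5 in null and 17.6 and 23.4 in control arrays, a difference of 0.31 ± 0.21 (SE, limma adjusted p = 0.789). The array null_60 was lowest by the first and second of these probe sets and highest by the third.

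Over all members, 0 of 14 probe sets passed limma's adjusted threshold of 0.05, against 0.124% of all probe sets (28 of 22626). At an unadjusted p under 0.05 the count was also 0 of 14, against 7.15% of all probe sets, and the smallest unadjusted p was 0.0859 (Hbb-y 1436717_x_at). The members split evenly in sign, with 7 higher and 7 lower in null colons, and their median log2 difference was -0.0035 against 0.016 over all probe sets. On the normalised scale the groups did not overlap in 2 of 14, with 1 above (Hbb-y 1436717_x_at) and 1 below (Hbb-bh1 1437990_x_at) both controls, against 23.7% of all probe sets (12.0% above and 11.6% below). By deposited intensities these overlapped, and Hbb-bh1 1437810_a_at and Slc4a1 1434502_x_at lay above both controls instead, against 24.2% of all probe sets (14.6% above and 9.64% below).

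Embryonic and adult globins were set side by side within each array as the mean log2 value of each class relative to its own mean over the arrays. Probe sets were first averaged within each gene, so the genes of a class weigh equally. Hba-x and Hba-a1, whose single probe sets hardly varied, thus count as much as the other genes of their class. Most embryonic probe sets were dim. The embryonic class stood at 0.024 in null_59, -0.097 in null_60 and 0.19 in null_426, and at -0.15 in CONTROL_406 and 0.027 in CONTROL_421. The adult class, by Hba-a1 and Hbb-b2, stood at -0.057, 0.047 and -0.0021 in null and -0.13 and 0.15 in control arrays. Embryonic minus adult was thus highest in null_426 (0.19) and lowest in null_60 (-0.14), with -0.013 and -0.12 in the control arrays. The null mean exceeded the control mean by 0.11, less than the spread within groups (SD 0.15), and it was 0.033 without null_426. With the 4 probe sets of several symbols as the adult class, chosen after the data were seen, the difference was 0.13 (SD within groups 0.26). The order of the arrays then changed, with CONTROL_406 lowest at -0.32, null_60 at -0.17, CONTROL_421 at 0.16 and null_426 still highest at 0.25.

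**Figure D3:**
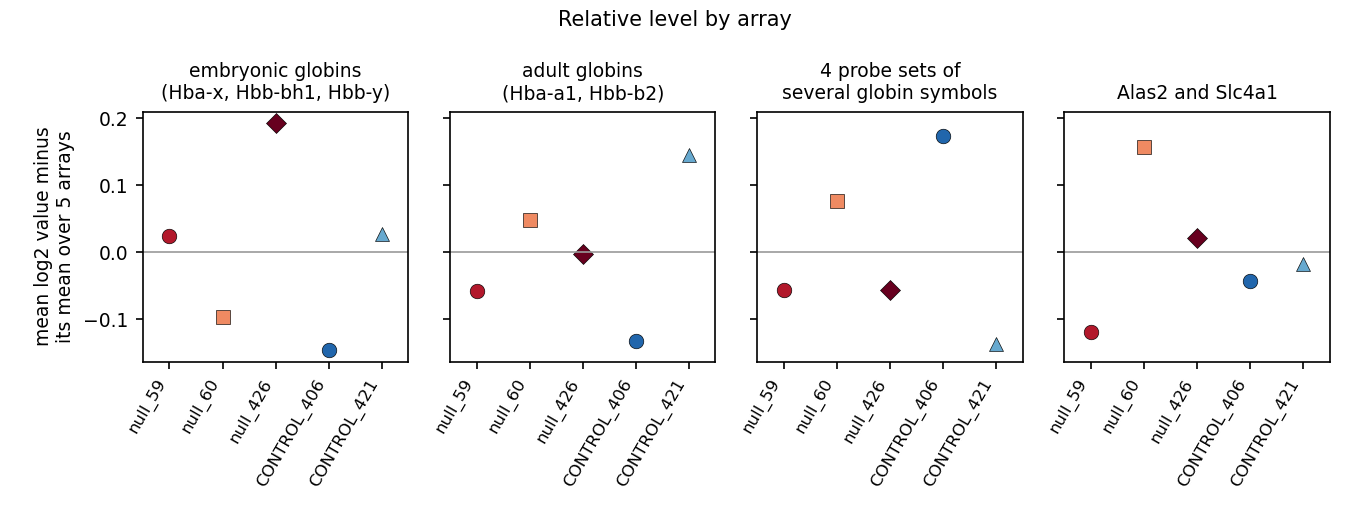
Mean log2 value relative to its own mean over the 5 arrays (vertical axis), by array, for embryonic globins, adult globins of a single symbol, the 4 probe sets of several globin symbols, and Alas2 with Slc4a1. The embryonic class is highest in null_426 (0.19), and the adult class and the probe sets of several symbols order CONTROL_406 and CONTROL_421 in opposite ways.

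The rest of the erythroid programme was read through lists of genes, each by its brightest probe set, and 0 genes of any list passed limma's threshold in either direction (0.0177% of all probe sets passed as higher and 0.106% as lower in null). Counts at an unadjusted p under 0.05 are to be read against 7.15% of all probe sets at that level, 2.82% higher and 4.33% lower in null. Over all 12390 genes the median log2 difference was 0.021. Of 18 genes of haem synthesis and its mitochondrial transport 14 were measured, with 9 higher and 5 lower in null and a median of 0.080. At an unadjusted p under 0.05, against the 7.15% of all probe sets, 1 of 14 was higher, the translocator gene Tspo2 of late erythroblasts, at 93.4, 72.1 and 93.2 in null and 55.0 and 45.0 in control arrays (log2 difference 0.55, limma adjusted p = 0.578). The iron-sulfur assembly gene Isca1 was at -0.33. Among the enzymes of the pathway, Alad, which joins aminolevulinate into porphobilinogen, was at -0.080, Urod at 0.19 and Cpox at -0.13. Ppox, chosen after its value was seen as the enzyme furthest from 0, was at 0.27. Fech, which inserts iron into haem, read 387, 377 and 404 in null and 389.8 and 399 in control arrays (0.011).

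Of 27 listed symbols of the red cell membrane and skeleton 21 were measured, with 13 higher and 8 lower in null, a median of 0.079, and 2 of 21 higher at an unadjusted p under 0.05, against 7.15% of all probe sets in either direction. These were Xk, the carrier of the Kx antigen, at 88.1, 90.6 and 86.2 in null and 55.3 and 41.4 in control arrays (0.62, limma adjusted p = 0.441), and Add2, beta adducin, at 401, 404.5 and 636 against 238 and 326 (0.74, limma adjusted p = 0.615). Of core red cell components, named as fixed examples, beta spectrin, Sptb, was at 0.11 and the band 3 linker gene Epb42 at -0.028. The Rh-associated glycoprotein gene Rhag was at 0.21 and the blood group gene Kel at 0.088. Xk and Add2 were named for their small p-values, so their larger differences follow from that choice. Epb42, Kel and Rhag were also dim, with mean intensities of 55.8, 60.1 and 20.0, where the added 16 shrinks log2 differences.

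Of 18 erythroid transcription factors 16 were measured, with 7 higher and 9 lower in null, a median of -0.012 and 1 lower at an unadjusted p under 0.05, the progenitor factor gene Myb (-0.58, limma adjusted p = 0.651). Gata1, the master regulator of the lineage, read 116, 138 and 189.7 in null and 124 and 143 in control arrays (0.085), and its highest array was null_426. Klf1, which activates adult beta globin, read 121, 106 and 108 in null and 109 and 94.1 in control arrays (0.063). Tal1 differed by 0.070, Nfe2 by 0.30, Lmo2 by -0.30 and Bcl11a, a repressor of embryonic globin genes, by -0.014, with 121, 123 and 117 in null and 118 and 115 in control arrays. No adjusted p of these 6 was under 0.767. Klf1, Bcl11a and Nfe2 read below the array's median intensity on every array, and whether their RNA was detected was not tested.

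Of 11 genes for growth factor receptors, their signalling and iron uptake 10 were measured, with a median of 0.022 and 1 lower at an unadjusted p under 0.05, the iron importer gene Slc11a2 (-0.48, limma adjusted p = 0.666), which enterocytes also use. The erythropoietin receptor gene Epor read 121, 92.9 and 128 in null and 98.4 and 100.2 in control arrays (0.11). The transferrin receptor gene Tfrc differed by 0.045, and Kit by 0.39. Among 21 measured genes of red cell enzymes and reticulocyte maturation, of 27 listed symbols, the median was 0.039, and an unadjusted p under 0.05 was reached by 2 lower genes, the biliverdin reductase gene Blvrb (-0.56, limma adjusted p = 0.571) and Tent5c (-0.52, limma adjusted p = 0.652). Of 9 other globins 4 were measured, with Hba-a2, the twin of Hba-a1, at 18.6, 30.7 and 38.9 in null and 28.8 and 33.5 in control arrays (-0.17). Myoglobin, Mb, the oxygen store of muscle, was the 1 with an unadjusted p under 0.05 (0.63, limma adjusted p = 0.653).

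Genes that clear haemoglobin and haem were measured for all 12 listed, with a median of 0.018, 1 higher and 1 lower at an unadjusted p under 0.05. The iron exporter gene Slc40a1, active in enterocytes and in macrophages that recycle red cells, read 951, 1355 and 907 in null and 2321 and 2369.9 in control arrays, a log2 difference of -1.10 ± 0.18 (SE, limma adjusted p = 0.0945). All null arrays lay below both control arrays, yet the adjusted p was over the threshold. Spic, a factor of red pulp macrophages, differed by 0.75 (limma adjusted p = 0.591), the haem oxygenase gene Hmox1 by 0.041 and the haemoglobin scavenger receptor gene Cd163 by -0.029, at 11.7 to 19.1 over all arrays.

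Markers of the other cells that blood or the dissection could bring were measured beside the globins. For platelets and megakaryocytes 10 of 13 genes were measured, with a median of 0.077 and 1 higher at an unadjusted p under 0.05 (Gp1bb, 0.54, limma adjusted p = 0.653), while Pf4, platelet factor 4, differed by -0.34. For leukocytes 17 of 18 were measured, with a median of -0.047, 2 higher (Mpo, 0.47, and S100a8, 0.46) and 1 lower at that level, against 7.15% of all probe sets. The lower one, Prtn3 (-0.53, limma adjusted p = 0.648), a protease gene of myeloid granules, is outside the rule for named genes and was chosen after its value was seen. All 17 genes of blood endothelium were measured, with a median of 0.055 and 0 at an unadjusted p under 0.05, Pecam1 at 0.55, Cdh5 at 0.065, Plvap at -0.59 and Vwf at -0.28. Hepatocyte genes, listed because the fetal liver makes red cells, had a median of 0.025 over 12 of 14, again 0 at that level, with Alb at 0.32, Afp at -0.31 and Serpina1b at -0.32. Afp, the fetal liver marker, read 85.8, 75.9 and 109 in null and 72.1 and 167 in control arrays. One hepatocyte gene, the fibrinogen gene Fgg, was at or below 0 on at least 1 array. The brightest of this list were Apoa1, Ttr and Apoa2, at mean intensities of 405, 251 and 226. Whether RNA of the listed genes came from liver cells or from the colon itself was not tested.

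Summed over 1 probe set per gene, the 7 members reached 3765 to 4583 in null and 4039.9 and 4293 in control arrays. The sums were 1461 to 1813 in null against 1582 and 1588 in control arrays for platelets, 2492 to 2997 against 2745 and 2805 for leukocytes, 2818.5 to 3334 against 2948 and 2999 for endothelium, and 1374 to 1837 against 1621 and 1650.0 for hepatocytes. In each of these 5 sums the null range enclosed both control values. No share of such sums over all genes was computed. For single probe sets, deposited intensities of the groups did not overlap in 24.2% of all. A sum follows its brightest probe sets, and Hbb-b2 1427866_x_at alone gave 2719 to 3244 of the member sum. Among the erythroid, other globin and clearance lists, the sums did not overlap for the red cell membrane and skeleton (4837 to 5046 in null against 4445 and 4537). Of the 21 measured genes of that list, 13 were higher and 8 lower in null. Add2, 1 of them, had means of 480 in null and 282 in control arrays, and its part in the gap was not tested. Nor did the sums overlap for other globins (569 to 665 against 554 and 556). That list holds the muscle gene Mb, with means of 155 in null and 90.2 in control arrays, while the dim probe set of Hba-a2 had 29.4 and 31.2. The sums for the clearance of haemoglobin and haem, a list that holds Slc40a1, were also apart (3154 to 3491 against 4468 and 4472). The sums overlapped for haem synthesis (3172 to 3640.2 against 3083 and 3484.5), transcription factors (2629 to 3127 against 2739.5 and 2750.5), receptors and iron uptake (5554 to 6373 against 6331 and 6873) and red cell enzymes (5552 to 6174 against 5821 and 6710.3). Colonic epithelial genes gave sums of 20705 to 25174 in null and 26734 and 27866 in control arrays. Of 17 measured epithelial genes 14 were lower in null and 8 had an unadjusted p under 0.05, all lower, against 4.33% of all probe sets lower at that level, among them Krt20 (-0.87) and Epcam (-0.66, limma adjusted p = 0.387), with a median of -0.32. The part of this shift in the erythroid values was not tested.

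**Figure D4:**
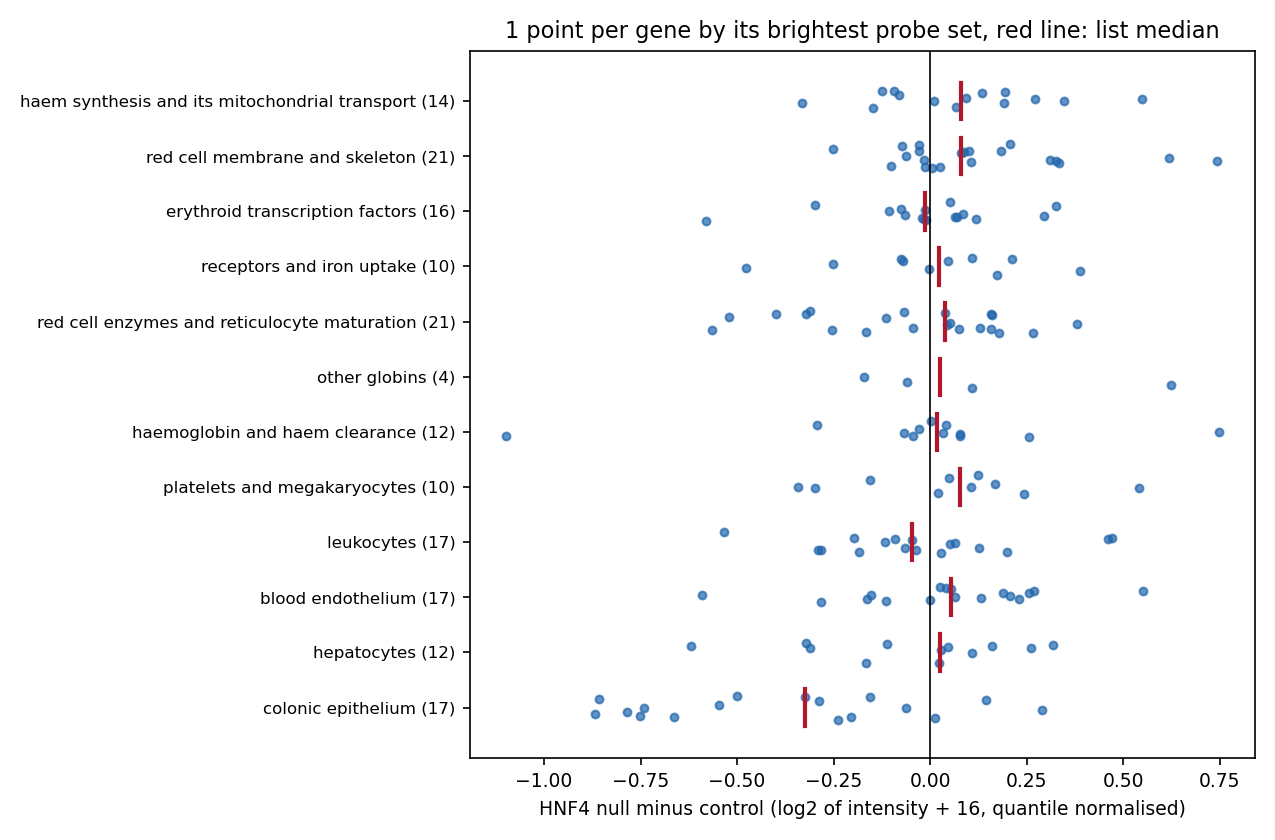
Log2 difference of HNF4 null minus control (horizontal axis) for each measured gene of the 12 lists, by its brightest probe set, with the number of genes in brackets and the list median as a red line. Medians of the blood and erythroid lists lie between -0.047 and 0.080, and that of colonic epithelium at -0.32.

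The mean profile of the 7 measured members, by their brightest probe sets, ran from -0.096 in CONTROL_406 to 0.21 in null_426 on the log2 scale, a range of 0.31. Among 7400 other genes brighter than the median probe set, the profiles nearest to it over the 5 arrays were those of Gpatch1, Slit2, Plekho2, Atp5md, Vhl, Rab13, Syt2, Pgs1, Spsb2 and Fcer1g. Their root mean square distances from it were 0.016 to 0.030 on the log2 scale, against a median of 0.20 for all candidates. As many as 803 of the 7400 lay within 0.1, and none of the 10 is on the erythroid lists. The profile is a mean over genes set beside single genes. Single member probe sets ranged over a median of 0.64 across the arrays, against 0.51 for all probe sets. With the median of the members in place of their mean, null_426 stood at 0.067.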

How the data were processed

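Per the labels, RNeasy mini kits (Qiagen) gave total RNA, and biotin labelling followed Affymetrix's standard protocol. The authors deposited linear intensities, 1 for each probe set on each array, some below 0. The summary software, background step and scaling are not given in the sources used here. Of 22690 probe sets, 64 control probe sets were left out. A 2016 platform annotation gave 1 symbol to 20380 tested probe sets, several to 691 and none to 1555. Of the first, 20351 matched RefSeq (GRCm38.p6) by gene ID, with 0 symbols changed.

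Values below 0 were set to 0, taken as log2(intensity + 16) and quantile normalised. This scale understates changes of dim genes. Null and control were compared with limma 3.58.1 in R 4.3.3 (lmFit, eBayes, two-sided, no covariate), with Benjamini-Hochberg adjustment over 22626 probe sets. Intervals are 95% intervals. A gene's representative probe set had the highest mean. The fit was tested on simulated data. The p-values measure spread between 5 embryos, whose number limits the precision. Named genes were all members, 27 fixed examples where measured, each list's 2 smallest p-values and the 10 nearest profiles. Members and lists were chosen with earlier results of these data known. Alternatives covered normalisation, pseudocount, dim probe sets, variance prior, weights and each array left out.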

Additional observations from a re-analysis of the deposited data

How the results depend on the processing

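Of the 14 member probe sets 0 passed the threshold under any alternative, and the lowest adjusted p of a member was 0.449. After removal of dim probe sets 6 members remained, and embryonic minus adult, with Hbb-y 1450621_a_at as the only embryonic probe set left, was 0.34. It lay between 0.033 and 0.25 under the other alternatives run for it, and the prior and weights do not enter it. Over all probe sets, 14 passed with a pseudocount of 1, 45 with array weights and 8 to 104 with 1 array left out, where the median of the members ran from -0.067 to 0.13. A lone control array left in a fit was taken to have the spread of the null arrays.

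Of 160 member values under alternatives, 25 changed sign, and the cause was not tested. As deposited, Hbb-y 1436823_x_at was at 0.053, Hba-a1 at 0.027 and Hbb-b2 1427865_at at -0.025. After median centring the first and last were at 0.0070 and -0.071, and with a pseudocount of 64 the last was at -0.0027. With array weights Hba-a1 was at 0.021, Hbb-b2 1427865_at at -0.11 and Alas2 at -0.077. With 1 array left out, Hbb-bh1 ran from -0.015 to 0.86 (1437810_a_at) and from -0.037 to 0.41 (1450736_a_at), and Hbb-y from -0.27 to 0.25 (1436823_x_at) and from -0.050 to 0.63 (1450621_a_at). Hba-a1 ran from -0.066 to 0.035, Hbb-b2 from -0.40 to 0.40 (1427865_at) and from -0.067 to 0.058 (1427866_x_at), Alas2 from -0.066 to 0.26 and Slc4a1 1431743_a_at from -0.20 to 0.061. No paired analysis was made, since the embryo numbers do not pair a null embryo with a control embryo.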

Other observations

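The control embryos differed in opposite directions by different adult globin probe sets. CONTROL_406 exceeded CONTROL_421 in all 4 probe sets annotated to several globin symbols, at 4690.4 against 3626 for 1417184_s_at, 2949.6 against 2363 for 1417714_x_at, 5378 against 4185 for 1428361_x_at and 3963 against 3055 for 1452757_s_at. By Hbb-b2 1427865_at it was the lower array, at 283 against 498, and by Hbb-b2 1427866_x_at it read 2993 against 3244. The symbols Hbb-bs and Hbb-bt belong to the single haplotype of the beta globin cluster and Hbb-b1 and Hbb-b2 to the diffuse haplotype, and the labels do not give the strain background of the embryos. Of the probe sets annotated to several symbols, only 1417184_s_at lists beta genes, and the others list alpha genes alone. CONTROL_421 also had the high Gapdh ratio of 1.47. The cause of these differences between the control embryos was not tested.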
